A study of Mus musculus with 16 samples.

Results

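The genes described here are markers of endothelium, the cells that line blood vessels: Cdh5, Pecam1, Kdr, Flt1, Tek, Tie1, Eng and Vwf (8 of 8251 genes named by single-symbol probe sets). Every probe set (a group of short array probes read out as 1 value) whose single gene symbol in the platform annotation was one of these 8 genes was taken, which gave 11 probe sets of 12488. No probe set with several symbols named one of them. Flt1, Tie1 and Vwf had 2 probe sets each and the other genes 1.

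The material was epithelium of mouse ileum (distal small intestine), cut from sections by laser capture. Its RNA was amplified in 2 rounds and hybridised to Affymetrix MG_U74Av2 arrays. By title, 6 arrays were WT, 5 adenoma, a benign growth, and 5 carcinoma, which invades. The sources used here do not give genotype, strain, age, treatment or how tissue was chosen for capture, and the labels tie no array to an animal. The p-values therefore measure the spread between captured samples, which may be technical or come from shared animals, and the number of arrays limits the precision.

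Blood vessels of the gut run in the connective tissue core of each villus, directly beneath the epithelium. Endothelial cells hold to each other through VE-cadherin and PECAM-1, take growth signals from VEGF and angiopoietins through receptor tyrosine kinases, and store von Willebrand factor for clotting. Several of the 8 genes are also used by blood cells, Pecam1, Eng and Tek among them, so a signal of 1 gene does not identify the cell it came from. In captured tissue, fewer cells of a type and less RNA per cell cannot be told apart.

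Epithelial genes were present as labelled. Of 15 probe sets of epithelial genes, 13 lay above the floor on all 16 arrays, and only second probe sets of Krt18 and Tjp1 did not. The floor was 46.9 on the signal scale, the 25th percentile of all values, and lower values were raised to it before log2 was taken. Of the 11 endothelial probe sets, 6 lay above it on all 16 arrays and 9 on at least 5 arrays, which was the minimum for a test. Arrays differed in their controls. The mean log2 signal of spiked-in transcripts was 12.44 to 14.73 in WT, 11.38 to 13.47 in adenoma and 11.56 to 12.70 in carcinoma, and 4 WT arrays (WT 1, 2, 4 and 5) lay above every tumour array. The log2 ratio of 3' to 5' Gapdh signal, a measure of RNA quality, was 4.09 to 5.02 in WT, 5.52 to 6.12 in adenoma and 4.95 to 6.45 in carcinoma. No adenoma array lay in the WT range, and of the carcinoma arrays only carcinoma 4 did. A fit adjusted for this ratio therefore separates it poorly from the groups, whatever the size of its estimates. The median log2 difference of all 10563 tested probe sets was -0.18 for adenoma minus WT and -0.17 for carcinoma minus WT, and became 0.07 and 0.10 with array medians aligned.

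The panel did not move as a block. In adenoma, Cdh5 rose 4.50-fold over WT and 1 of the 2 Flt1 probe sets 3.73-fold, while the other 7 tested probe sets did not pass the test. Thus 2 of 9 were higher and 0 lower at a limma adjusted p of 0.05, where 3.53% of all tested probe sets were higher and 4.24% lower, and 4 of 9 had an unadjusted p under 0.05, against 23.0%. These were Cdh5, the same Flt1 probe set and Tek, with higher estimates, and Pecam1, with a lower one. In carcinoma, 0 of 9 passed by limma against a background of 8.68% in either direction (3.67% higher and 5.01% lower), although 4 of 9 (Cdh5, Kdr, Tek and Eng, all with higher estimates) had an unadjusted p under 0.05, against 23.5% of all probe sets. Between carcinoma and adenoma, 0 of 9 passed by limma (background 0.0379%), and 2 of 9, Cdh5 and the same Flt1 probe set, had an unadjusted p under 0.05, against 2.44%. The median log2 difference of the 9 was 0.43 in adenoma and 0.35 in carcinoma against WT, beside -0.18 and -0.17 for all probe sets. Both tumour comparisons share the WT arrays. The split of all called probe sets depended on the scaling of arrays: 45.4% of those called in adenoma and 42.3% in carcinoma were higher, and these became 72.7% and 71.7% with array medians aligned and 60.7% and 57.3% after quantile normalization.

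**Figure D1:**
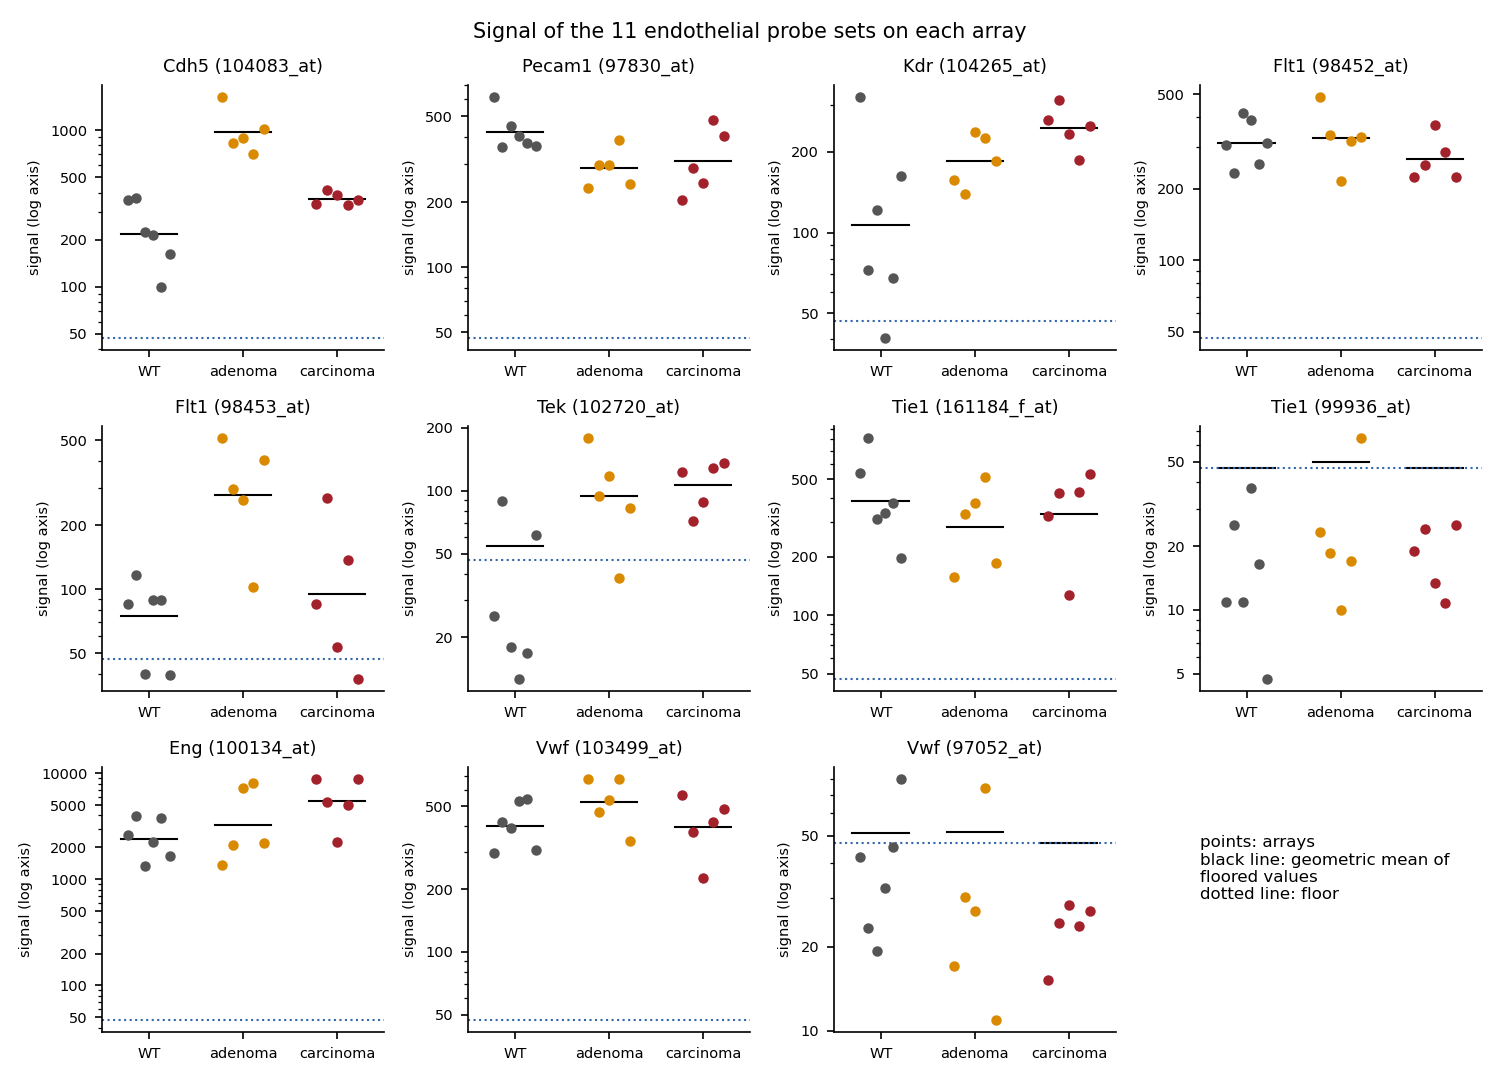
Signal of each of the 11 endothelial probe sets (log axis, 1 point per array) in the 6 WT, 5 adenoma and 5 carcinoma arrays, with the geometric mean of floored values as a line and the floor of 46.9 dotted. Cdh5 is the panel in which every adenoma array lies above every WT and carcinoma array, and Tie1 (99936_at) and Vwf (97052_at) lie mostly below the floor.

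Cdh5 encodes VE-cadherin, the cadherin of endothelial adherens junctions. Its probe set (104083_at) read 99.6 at the lowest, 219 at the median and 369.6 at the highest of the 6 WT arrays. The adenoma arrays 1 to 5 read 1639, 834, 889.9, 709 and 1014. The carcinoma arrays 1 to 5 read 339, 417, 385, 333 and 361. All 5 adenoma arrays were thus above every WT and every carcinoma array, and the carcinoma arrays lay close together at the upper end of the WT range, 2 of them above its highest value.

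Against WT, Cdh5 was higher in adenoma by 2.17 ± 0.32 on the log2 scale (limma estimate ± SE, adjusted p = 0.000232), and by 2.35 relative to the median of all probe sets. It was the 1 of 9 tested members whose adenoma arrays all exceeded all WT arrays, which 2.75% of all tested probe sets did. Leaving out any 1 array kept it between 1.95 and 2.32 (adjusted p at most 0.00104), and over 14 other settings it ran from 2.09 to 2.88 with an adjusted p of at most 0.0103. In carcinoma it was 0.76 ± 0.32 above WT, which did not pass (adjusted p = 0.155), and passed with array medians aligned (1.08, adjusted p = 0.0486). Carcinoma was below adenoma by -1.41 ± 0.33, with no overlap of arrays (1 of 9 members, and 0.407% of all probe sets), yet with an adjusted p of 0.2855 over all probe sets. With array weights, which raised the probe sets called between the tumours from 4 to 28, that difference was -1.48 and passed (adjusted p = 0.0165). It did not pass in 13 of 14 other settings (limma adjusted p up to 0.581). Nor did it pass with any 1 of the 16 arrays left out (-1.53 to -1.22, adjusted p from 0.1215 to 0.951). The order of levels was therefore adenoma, carcinoma, WT, and by the adjusted tests only its ends differed.

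Pecam1 encodes PECAM-1, an adhesion molecule of endothelial junctions that platelets and leukocytes also carry. Its probe set (97830_at) read 359.7, 391 and 616 at the lowest, median and highest WT array. Adenoma arrays 1 to 5 read 232, 298, 296, 388 and 243, and carcinoma arrays 204, 288, 246.5, 479 and 406. The groups overlapped, with 4 of the 5 adenoma arrays below the lowest WT array. The estimates were -0.55 ± 0.26 in adenoma (limma adjusted p = 0.216) and -0.45 ± 0.26 in carcinoma (adjusted p = 0.319), so the 2 adhesion genes of the panel had estimates of opposite sign.

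Kdr and Flt1 encode the VEGF receptors VEGFR2, which carries most of the growth signal to endothelium, and VEGFR1, which binds VEGF tightly and also exists as a soluble form that traps it. RefSeq promoter sequences (table of build GRCm38.p6) matched 5 of the 8 genes: Eng, Tek, Tie1, Kdr and Flt1. Those of the 2 VEGF receptors are shown because 1 of the pair had a probe set that rose in adenoma and the other did not pass there. Each line gives the 250 bases before the listed start, 5′ to 3′ on the gene's own strand, with the letters GGAA or their reverse complement TTCC, the core recognised by ETS factors, in capitals.
Flt1: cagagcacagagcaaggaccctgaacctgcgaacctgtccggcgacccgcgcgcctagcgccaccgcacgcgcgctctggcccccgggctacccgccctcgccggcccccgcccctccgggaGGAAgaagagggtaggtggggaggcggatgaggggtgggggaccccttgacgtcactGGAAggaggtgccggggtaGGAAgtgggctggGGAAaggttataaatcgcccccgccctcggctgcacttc
Kdr: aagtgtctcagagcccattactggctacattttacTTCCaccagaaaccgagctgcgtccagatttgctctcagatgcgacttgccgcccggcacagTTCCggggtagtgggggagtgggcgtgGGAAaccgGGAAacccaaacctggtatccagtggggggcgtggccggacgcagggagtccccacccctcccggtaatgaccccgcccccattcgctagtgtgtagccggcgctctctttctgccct
The Flt1 window is chr5:147726012-147726261 and the Kdr window chr5:75978456-75978705, both on the minus strand, and for both RefSeq also has a gene span that reaches further upstream. Each held 4 matches, against a median of 3 over 32851 promoter windows of the same length, of which 93.4% held at least 1. The longer letters CCGGAA, which contain the same core and were searched on both strands, had 1 match in the Kdr window and in 12.0% of all windows. A match describes these letters only.

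The Flt1 probe set 98453_at read 39.5, 86.8 and 116 at the lowest, median and highest WT array. Adenoma arrays 1 to 5 read 516, 296, 262, 102 and 405. Carcinoma arrays read 85.3, 267, 53.3, 137 and 37.6. In adenoma 4 of 5 arrays were above every WT array and adenoma 4 was not, while the carcinoma arrays spread across both ranges. The log2 difference was 1.90 ± 0.46 in adenoma (limma adjusted p = 0.0140), 0.35 ± 0.46 in carcinoma (adjusted p = 0.671) and -1.55 ± 0.48 for carcinoma minus adenoma (unadjusted p = 0.00428, adjusted p = 1). The adenoma call was lost when the fit was adjusted for the Gapdh ratio (2.38, adjusted p = 0.248) or for the spike-in level (2.04, adjusted p = 0.06525), and when WT 1, 2, 4 and 5 were left out (2.57, adjusted p = 0.0639). The estimate was larger in each of these, but the Gapdh ratios of WT and adenoma did not overlap, so that fit cannot separate ratio from group. Over 13 other settings the estimate ran from 1.32 to 2.57. With any 1 array left out it ran from 1.68 to 2.26 and kept its call (limma adjusted p at most 0.0471).

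The other Flt1 probe set (98452_at) read 234, 308 and 417.5 at the lowest, median and highest WT array. Adenoma arrays read 488, 335, 216, 316 and 329, and carcinoma arrays 224, 252, 371, 284.5 and 225, and the 3 groups overlapped throughout. Its log2 differences were 0.07 ± 0.26 in adenoma (limma adjusted p = 0.905) and -0.22 ± 0.26 in carcinoma (adjusted p = 0.625). A fit with 1 probe set per gene, chosen by its mean signal, used this one and called only Cdh5. The sources used here do not give which form of the transcript each probe set reads, and the difference between the 2 responses was not tested.

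Kdr (104265_at) read 40.3, 96.8 and 322 at the lowest, median and highest WT array. Adenoma arrays 1 to 5 read 157, 139, 238, 225 and 185, and carcinoma arrays 262, 312, 234, 187 and 249.9. The highest value of all 16 arrays was that of WT 1, and that array alone reached into the carcinoma range. WT 6, at 163, also lay above 2 of the 5 adenoma arrays. The log2 differences from WT were 0.80 ± 0.38 in adenoma (limma adjusted p = 0.222) and 1.21 ± 0.38 in carcinoma (adjusted p = 0.0584). Without WT 1, Kdr passed in adenoma at 1.12 (adjusted p = 0.0424) and in carcinoma at 1.53 (adjusted p = 0.00568). It also passed in carcinoma without WT 6 (1.33, adjusted p = 0.0418), after quantile normalization (1.47, adjusted p = 0.0378), with array medians aligned (1.48, adjusted p = 0.0251) and with array weights (1.13, adjusted p = 0.0452). Other settings lowered it. With the floor at the 40th percentile Kdr was at 0.35 in adenoma (adjusted p = 0.4305) and 0.76 in carcinoma (adjusted p = 0.0738), and without WT 1, 2, 4 and 5 at 0.40 and 0.81 (adjusted p = 0.663 and 0.2435). Without WT 4 alone, the WT array below the floor, it was at 0.56 and 0.97 (adjusted p = 0.392 and 0.116).

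**Figure D2:**
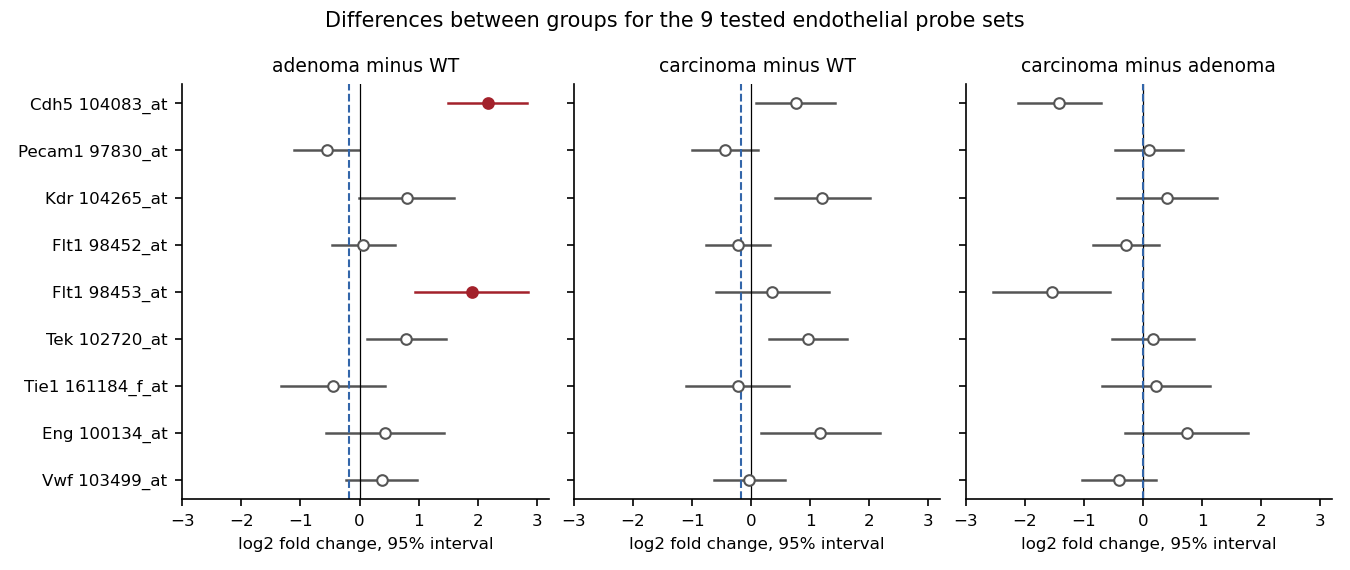
Log2 fold change with its 95% limma interval for the 9 tested endothelial probe sets in the 3 comparisons, filled red where the adjusted p is under 0.05, with the median of all probe sets as a dashed line. Cdh5 and Flt1 (98453_at) stand at 2.17 and 1.90 in adenoma, and no probe set is filled in the 2 other comparisons.

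Tek and Tie1 encode the receptor tyrosine kinases of the angiopoietin system. Tek (Tie2) binds angiopoietins, and Tie1 is a partner receptor that modulates it. Tek (102720_at) read 12.6, 21.7 and 89.5 at the lowest, median and highest WT array, and 4 of 6 WT arrays were below the floor. Adenoma arrays read 179, 94.1, 117, 38.2 and 82.3, and carcinoma arrays 123.5, 72.1, 88.1, 129 and 136. Only adenoma 4 of the 10 tumour arrays was below the floor, and 3 arrays of each tumour exceeded every WT array. The differences, understated by the floor, were 0.79 ± 0.32 in adenoma (limma adjusted p = 0.139) and 0.96 ± 0.32 in carcinoma (adjusted p = 0.0667).

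These Tek differences depended on the settings, in both directions. With the floor at the 40th percentile, which lay above most Tek values, they were 0.14 in adenoma (limma adjusted p = 0.651) and 0.12 in carcinoma (adjusted p = 0.719). Without adenoma 1 the adenoma difference was 0.56 (adjusted p = 0.341), and with the fit adjusted for the spike-in level the 2 differences were 0.61 and 0.78 (adjusted p = 0.474 and 0.369). Without adenoma 4, Tek passed in adenoma (1.05, adjusted p = 0.0366) and in carcinoma (0.96, adjusted p = 0.0367). In carcinoma it also passed without WT 2 (1.10, adjusted p = 0.0429), without adenoma 1 (0.96, adjusted p = 0.0495), after quantile normalization (1.21, adjusted p = 0.0254) and with array medians aligned (1.15, adjusted p = 0.0330). With the floor at the 10th percentile, 15.9 on the signal scale, the carcinoma difference was 1.85 (adjusted p = 0.0279). In adenoma it passed with array weights (0.99, adjusted p = 0.0455).

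The 2 Tie1 probe sets gave different pictures. The one labelled 161184_f_at, a suffix that marks probes matching a family of sequences, read 196, 357 and 818 at the lowest, median and highest WT array. Adenoma arrays read 156, 332, 376, 513 and 186.5, and carcinoma arrays 323.5, 424, 126.5, 429 and 535. The groups overlapped, with log2 differences of -0.45 ± 0.42 in adenoma (limma adjusted p = 0.546) and -0.23 ± 0.42 in carcinoma (adjusted p = 0.775). The probe set 99936_at was above the floor on 1 of 16 arrays, adenoma 5 at 65.2, and was not tested. Its other values lay between 4.7 and 37.8.

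Eng encodes endoglin, a co-receptor for TGF-beta family ligands that is abundant on proliferating endothelium. Its probe set (100134_at) read 1338.5, 2428 and 3972 at the lowest, median and highest WT array. Adenoma arrays 1 to 5 read 1360.0, 2091, 7238, 8069 and 2200.5, and carcinoma arrays 8908, 5339, 2249, 4998 and 8824. Adenoma split into 2 arrays above and 3 within the WT range, whereas 4 of 5 carcinoma arrays were above every WT array and carcinoma 3 was not. The differences were 0.43 ± 0.48 in adenoma (limma adjusted p = 0.613) and 1.17 ± 0.48 in carcinoma (adjusted p = 0.142). The carcinoma difference passed with array medians aligned (1.49, adjusted p = 0.0491) and when the fit was adjusted for the spike-in level (2.02, adjusted p = 0.0473). It did not pass in 12 of 14 other settings, where it fell as low as 0.90 and the limma adjusted p rose as high as 0.724. With any 1 array left out it ran from 0.99 to 1.49 and did not pass (adjusted p up to 0.295).

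Vwf encodes von Willebrand factor, the clotting protein stored by endothelium and platelets. Its tested probe set (103499_at) read 298.5, 405 and 539 at the lowest, median and highest WT array. Adenoma arrays read 674, 469, 532, 677 and 339.5, and carcinoma arrays 563, 374, 226, 419 and 482, so that all groups overlapped. The differences were 0.37 ± 0.28 in adenoma (limma adjusted p = 0.454) and -0.03 ± 0.28 in carcinoma (adjusted p = 0.965). The other probe set (97052_at) was above the floor only on WT 6, at 80.0, and adenoma 4, at 74.1, and was not tested.

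Between carcinoma and adenoma the members other than Cdh5 and Flt1 (98453_at) had estimates from -0.40 ± 0.30 for Vwf to 0.74 ± 0.50 for Eng, each with a limma adjusted p of 1. The 95% intervals of this difference ran from -0.47 to 0.69 for Pecam1, from -0.43 to 1.25 for Kdr and from -0.52 to 0.86 for Tek. Differences of those sizes therefore remain possible.

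The probe sets whose log2 signal followed the 2 risen members most closely were named by Pearson's r over the 16 arrays, as a description. These arrays fall into 3 groups, so r includes the differences between groups, and r after subtracting each group's mean is given beside it. For Cdh5, of 9314 probe sets of other genes, the closest was Cdkn1c, a cell cycle inhibitor, at 0.878 (0.884 within groups). It was followed by Sprr2b, a cornified envelope protein (0.844, and 0.475 within groups), Mfsd4a, a transporter (0.838 and 0.593), Ctsl, a lysosomal protease (0.837 and 0.686), and Cpa3, the carboxypeptidase of mast cells (0.830 and 0.306). For Flt1 (98453_at), the closest of 9313 was Cdh5 itself, at 0.766 (0.385 within groups), followed by Tpst1, a tyrosine sulfotransferase (0.748 and 0.403). Mrpl27, C4bp and Ubl5 were next, at 0.722, 0.720 and 0.714 (0.533, 0.671 and 0.627 within groups). Within groups these were thus higher than the values of Cdh5 and Tpst1. Against the other 8 tested endothelial probe sets, r of Cdh5 ran from -0.466 for Pecam1 to 0.766 for Flt1 (98453_at), and within groups from -0.283 for Eng to 0.427 for Tek.

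**Figure D3:**
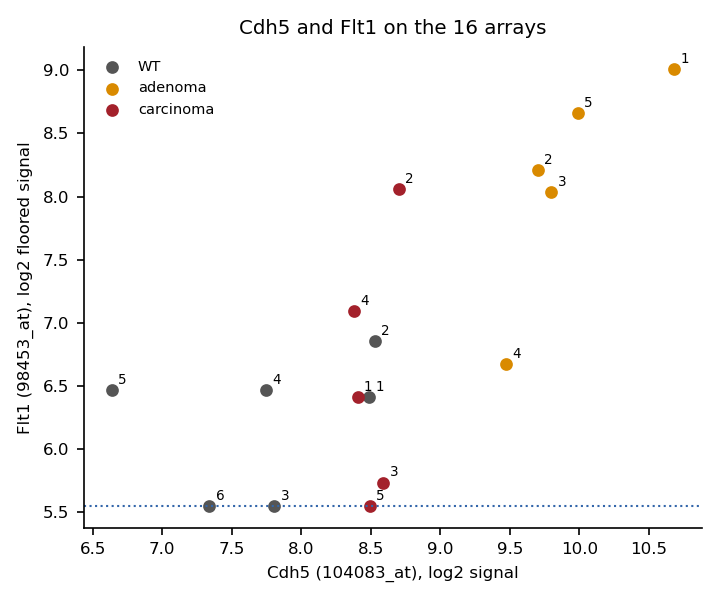
Log2 signal of Cdh5 and log2 floored signal of Flt1 (98453_at) on the 16 arrays, coloured by group and numbered by replicate, with the floor dotted. The 5 adenoma arrays lie furthest to the right, and adenoma 4, at 102 on the Flt1 signal scale, falls below the other 4.

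Tested probe sets of other endothelial genes were called about as often as all probe sets. Of 24 tested probe sets of other endothelial genes (22 genes on the array, 32 probe sets), 0 were higher and 1 lower in adenoma, where 3.53% of all probe sets were higher and 4.24% lower, and their median log2 difference was -0.32 beside -0.18 for all. In carcinoma 0 were higher and 1 lower, where the shares of all probe sets were 3.67% and 5.01%, and the median was -0.17, as for all. These were Sele, the E-selectin of inflamed endothelium, in adenoma (-1.15 ± 0.33, limma adjusted p = 0.0389), and Vcam1, a leukocyte adhesion molecule, in carcinoma (-1.35 ± 0.41, adjusted p = 0.0483). Sele lost its call when any 1 of 8 arrays was left out (adjusted p up to 0.0847) and Vcam1 when any 1 of 10 was (adjusted p up to 0.139). Nos3, the endothelial nitric oxide synthase, and 1 of the 2 Cd34 probe sets were below the floor on all 16 arrays. Cldn5, named after its values were seen, was above the floor on too few arrays for a test. It read 27.4 to 295 in WT, where 4 of 6 arrays were above the floor. Its highest values were 37.5 in adenoma and 28.4 in carcinoma, both above the lowest WT value, and the difference was not tested. Cd93 of the same list, also named after its values were seen, had higher estimates that did not pass. They were 0.48 ± 0.34 in adenoma (limma adjusted p = 0.412) and 0.90 ± 0.34 in carcinoma (adjusted p = 0.107). The summed signal of the 32 probe sets was 4118 to 6851 in WT, 3076 to 5029.7 in adenoma and 4043 to 5119.6 in carcinoma. That of the 11 panel probe sets was 3344 to 6498 in WT, 4937 to 11128 in adenoma and 4022 to 11307 in carcinoma, a sum to which the Eng probe set, which did not pass, gave 1339 to 8908. Without Eng the sum was 1686.5 to 2599 in WT, 2846 to 4081 in adenoma and 1773 to 2484 in carcinoma. That sum includes Cdh5, which read 99.6 to 369.6 in WT, 709 to 1639 in adenoma and 333 to 417 in carcinoma. It therefore cannot tell whether the panel rose apart from Cdh5, and a sum without both Eng and Cdh5 was not taken.

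Among 24 tested probe sets of transcription factors used by endothelium, 3 were higher and 1 lower in adenoma, and 2 were higher and 2 lower in carcinoma. The shares of all probe sets were 3.53% and 4.24% in adenoma and 3.67% and 5.01% in carcinoma. The list's median log2 differences were -0.35 and -0.42. Sox17, which acts in arterial endothelium and also in endoderm, was represented by 2 probe sets. The first (92996_at) read 69.3 to 264 in WT, 1212 to 1746 in adenoma and 335.5 to 868 in carcinoma, so that no groups overlapped. It was higher than WT by 3.22 ± 0.33 in adenoma (limma adjusted p = 3.6e-06) and by 1.79 ± 0.33 in carcinoma (adjusted p = 0.0016). The second (92997_g_at) was higher in adenoma by 1.74 ± 0.31 (adjusted p = 0.00137) but stood at 0.07 ± 0.31 in carcinoma (adjusted p = 0.919). It was above the floor on 1 of 6 WT, 5 of 5 adenoma and 2 of 5 carcinoma arrays, and reached the minimum for a test through the adenoma arrays. The floor thus pulls its carcinoma estimate towards 0, and its values cannot check the first probe set there. The rise of the first in adenoma was known from earlier results of these data. Ets2, a broadly expressed ETS factor, was higher by 1.46 ± 0.36 in each tumour (adjusted p = 0.0158 and 0.0150). With the fit adjusted for the Gapdh ratio, the first Sox17 probe set was at 3.30 in adenoma (adjusted p = 0.00904) and at 1.86 in carcinoma, where it lost its call (adjusted p = 0.134). The second was at 1.93 in adenoma and lost its call (adjusted p = 0.137), with estimates about as large as before in each case. The carcinoma call of the first was also lost without WT 1, 2, 4 and 5 (1.39, adjusted p = 0.0615). Ets2 fell to 0.76 and 0.82 with the Gapdh ratio (adjusted p = 0.728 and 0.631), and lost both calls with the spike-in level in the model (1.25 in each tumour, adjusted p = 0.154 and 0.169) and without those 4 arrays (1.31 in each, adjusted p = 0.155 and 0.157).

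Of the blood and endothelial factors, Lyl1 was lower in adenoma (-1.21 ± 0.35, adjusted p = 0.0403 by limma) and in carcinoma (-1.25 ± 0.35, adjusted p = 0.0323), and Tal1 in carcinoma (-1.13 ± 0.33, adjusted p = 0.0401). The Lyl1 calls were lost when any 1 of 9 arrays (adenoma) or 6 arrays (carcinoma) was left out, and the Tal1 call when any 1 of 9 was, with adjusted p up to 0.133, 0.0954 and 0.0883. All 3 were also lost with array medians aligned.

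The ligands and partner receptors of the panel did not pass. Of 18 tested probe sets of the VEGF, angiopoietin and BMP9 pathways (17 genes on the array), limma called 0 in any of the 3 comparisons. Of all probe sets, 3.53% were higher and 4.24% lower in adenoma, 8.68% were called in carcinoma and 0.0379% between the tumours. A count of 0 of 18 is near those shares. Vegfa, the main VEGF ligand, is named here although it falls outside the naming rule. It read 19.7 to 221 in WT, 27.2 to 152 in adenoma and 5.9 to 76.2 in carcinoma, a difference of 0.46 ± 0.38 in adenoma (adjusted p = 0.487) and -0.24 ± 0.38 in carcinoma (adjusted p = 0.734). Of 5 tested lymphatic probe sets, 1 was lower in adenoma, where 4.24% of all probe sets were lower. It was that of Flt4 (104417_at), the VEGF-C receptor of lymphatic endothelium (-1.06 ± 0.32, limma adjusted p = 0.0466). That call was lost when any 1 of 12 arrays was left out (adjusted p up to 0.152), and the other Flt4 probe set was at -0.14 ± 0.32.

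**Figure D4:**
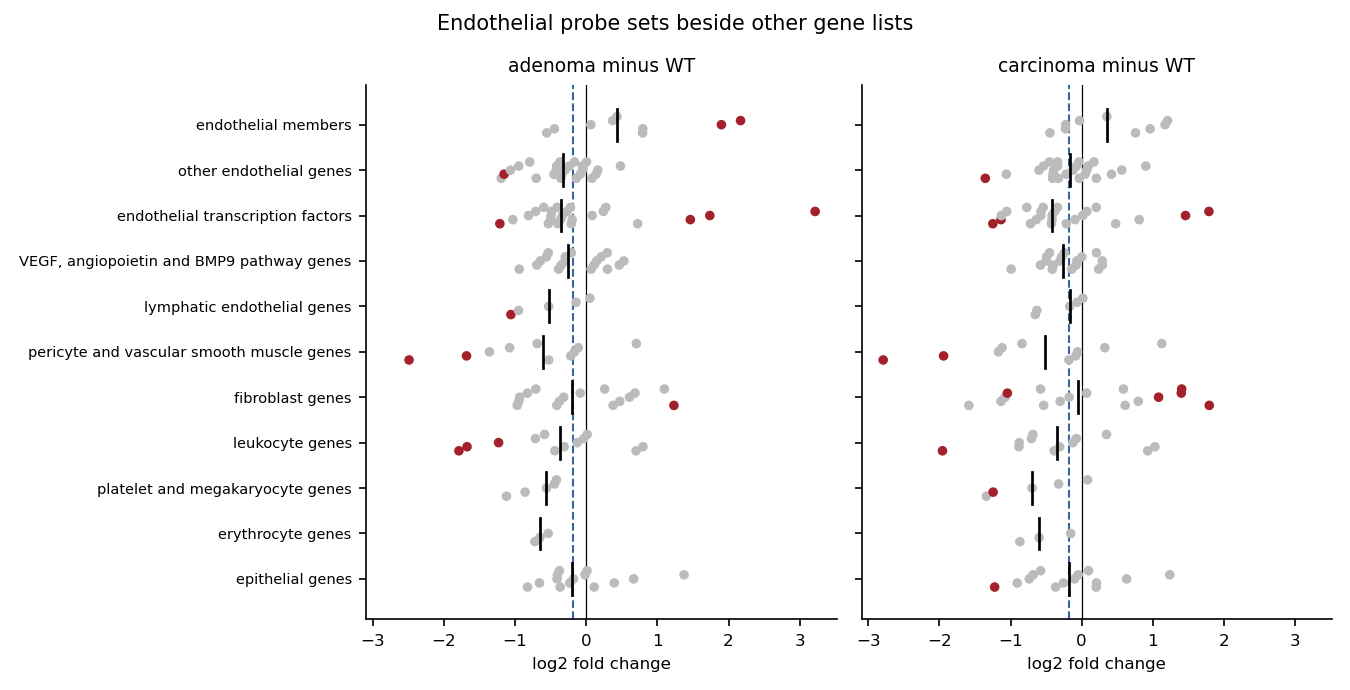
Log2 fold change of each tested probe set of the 11 gene lists in adenoma and carcinoma against WT, red where the limma adjusted p is under 0.05, with each list's median as a black line and the median of all probe sets dashed. The endothelial panel has medians of 0.43 and 0.35, and pericyte and smooth muscle genes lie lower, at -0.61 and -0.51.

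Markers of cells that accompany vessels did not move together on the same arrays. Pericyte and vascular smooth muscle genes had 0 of 10 probe sets higher and 2 lower in each tumour, where 4.24% of all probe sets were lower in adenoma and 5.01% in carcinoma. Myh11, a smooth muscle myosin, was lower by -2.49 ± 0.44 in adenoma and -2.79 ± 0.44 in carcinoma (limma adjusted p = 0.00132 and 0.000386). Acta2, smooth muscle actin, was lower by -1.68 ± 0.46 and -1.94 ± 0.46 (adjusted p = 0.0283 and 0.0113), and its adenoma call was lost when any 1 of 7 arrays was left out (adjusted p up to 0.0942). Both are smooth muscle genes, and no probe set of Kcnj8 or Rgs5 on the same list was called. Kcnj8 had median signals of 124 in WT, 202 in adenoma and 234 in carcinoma. The medians of Rgs5 were 143, 112 and 127 by 103294_at, and 98.05, 7.3 and 21.1 by 96180_at. The summed signal of the list was 2654 to 5301 in WT, 1305 to 3323 in adenoma and 1195 to 2581 in carcinoma.

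Fibroblast genes had 1 of 16 probe sets higher and 0 lower in adenoma (all probe sets 3.53% and 4.24%), and 4 higher and 1 lower in carcinoma (all probe sets 3.67% and 5.01%). Their summed signals were 7253 to 15536 in WT, 9489 to 15748 in adenoma and 12063 to 23062 in carcinoma. Fn1, fibronectin, was higher by 1.23 ± 0.31 in adenoma (limma adjusted p = 0.0195, and 0.0525 without adenoma 2) and by 1.40 ± 0.31 in carcinoma (adjusted p = 0.00794). Col1a1, a chain of type I collagen, was higher by 1.41 ± 0.24 in carcinoma by its probe set 103709_at (adjusted p = 0.000622), whereas its other probe set (94305_at) was at -1.08 ± 0.54 (adjusted p = 0.238). Col6a1 was lower there by -1.04 ± 0.30 (adjusted p = 0.0378), and lost its call when any 1 of 8 arrays was left out (adjusted p up to 0.116).

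Blood cells, which share several of the panel's genes, gave the following values. Leukocyte genes had 0 of 12 probe sets higher and 3 lower in adenoma, and 0 higher and 1 lower in carcinoma, where 4.24% and 5.01% of all probe sets were lower. The summed signal of their 19 probe sets was 9963 to 24498 in WT, 13687 to 21973 in adenoma and 15792 to 21448 in carcinoma, and Itgam and a probe set of Lyz2 were below the floor on all 16 arrays. Jchain, of plasma cells, was lower by -1.79 ± 0.28 in adenoma and -1.96 ± 0.28 in carcinoma (limma adjusted p = 0.000345 and 0.000109). Cd79b, of B cells, was lower in adenoma by -1.67 ± 0.41 (adjusted p = 0.0152), and lost its call without adenoma 1 or adenoma 5 (adjusted p up to 0.0542). Csf1r, of macrophages, was lower there by -1.23 ± 0.36 (adjusted p = 0.0432), and lost its call when any 1 of 8 arrays was left out (adjusted p up to 0.115). That was its probe set 161832_r_at, and the other (104354_at) was at -0.44 ± 0.30 (adjusted p = 0.405). The monocyte and macrophage markers Cd14 and Cd68 (103016_s_at), named after their values were seen, had estimates of the opposite sign in adenoma, 0.80 ± 0.29 and 0.70 ± 0.43 (adjusted p = 0.106 and 0.3435).

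Platelet genes had 0 of 5 probe sets higher in each tumour and 1 lower in carcinoma, Gp9 (-1.24 ± 0.32, limma adjusted p = 0.0176, where 5.01% of all probe sets were lower). The Gp9 call was lost after quantile normalization (-0.84, adjusted p = 0.174) and with array medians aligned (-0.92, adjusted p = 0.103). The platelet list had summed signals of 1063 to 4928 in WT, 712.5 to 1485 in adenoma and 653 to 1278 in carcinoma. Of 3 tested erythrocyte probe sets, 0 were called in either tumour, and their medians were -0.65 and -0.60, beside -0.18 and -0.17 for all. For these and the epithelial counts that follow, 3.53% of all probe sets were higher and 4.24% lower in adenoma. In carcinoma 8.68% of all were called in either direction. Epithelial genes had 0 of 14 called in adenoma and 1 lower in carcinoma, the keratin Krt20 (-1.22 ± 0.29, adjusted p = 0.0127, and -0.90 with adjusted p = 0.0571 with array medians aligned), with summed signals of 91787 to 221836 in WT, 84225 to 123824 in adenoma and 63252 to 138492 in carcinoma. With the Gapdh ratio in the model, which left 97 probe sets of all called in adenoma and 145 in carcinoma, the calls named in these non-endothelial lists were lost except that of Myh11 in carcinoma, but several estimates stayed about as large. Myh11 was at -2.87 in adenoma (limma adjusted p = 0.113), and in carcinoma Jchain was at -1.84 (adjusted p = 0.0572), Col1a1 (103709_at) at 1.40 (adjusted p = 0.104) and Acta2 at -1.83 (adjusted p = 0.357). The part of these cell types in the Cdh5 and Flt1 differences was not tested.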

How the data were processed

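The authors deposited 1 intensity per probe set and array on a linear scale. The sources used here do not name the software that made these values. Each array had a 2% trimmed mean of 500.3 to 500.4, so the values were taken as already scaled. All values were floored at 46.9 (5.55 on the log2 scale), and 66 control probe sets were left out. Gene symbols came from the platform annotation, where 10833 probe sets had 1 symbol, 396 several and 1193 none. Entrez identifiers of 10817 matched a gene table of GRCm38.p6, used for names.

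The 10563 probe sets that exceeded the floor on 5 or more arrays entered 1 model in limma 3.58.1 (R 4.3.3, 3 groups, 13 residual degrees of freedom, two-sided, Benjamini-Hochberg over all probe sets of a comparison at 0.05). The fit was tested on simulated data. The members and gene lists were chosen with earlier results of these data known. All 8 genes are described. Of the other lists, called probe sets are named, up to 3 per list for cells other than endothelium, and for likeness the 5 highest r. The alternatives for list genes were added after seeing the data. Figures used matplotlib 3.10.9.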

Additional observations from a re-analysis of the deposited data

Results flagged for a closer look

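Of 30 sets of values (a probe set in a group, on the floored log2 scale) with any spread, 3 held 1 array far from the others. Tie1 (99936_at) read 65.2 on adenoma 5, Vwf (97052_at) read 80.0 on WT 6, and Vwf (97052_at) read 74.1 on adenoma 4. In each of the 3 sets all other arrays were at or below the floor of 46.9, so the gap was measured from the floor.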

How the results depend on the processing

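The number of endothelial probe sets called in adenoma, 2, became 1 (Cdh5) with 1 probe set per gene, with the Gapdh ratio or the spike-in level in the model, and without WT 1, 2, 4 and 5, and was 2 to 3 with single arrays left out. In carcinoma the count of 0 became 2 after quantile normalization (Tek and Kdr), 4 with array medians aligned (Eng, Tek, Cdh5 and Kdr), and 1 with the floor at the 10th percentile (Tek), array weights (Kdr) or the spike-in covariate (Eng), and was 0 to 1 with single arrays left out. Between carcinoma and adenoma it was 0, and 1 (Cdh5) with array weights. Over all tested probe sets, 388 of 10563 were higher in carcinoma in the main fit. This became 461 of 10541 after quantile normalization and 706 of 10543 with array medians aligned. It was 313 of 12159 with the floor at the 10th percentile, 396 of 10563 with array weights and 235 of 10563 with the spike-in covariate. The cause of the changes in member counts was not tested.

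Same-numbered arrays correlated between -0.248 and 0.358 in their deviations from group means, over 0.1 in 6 of 15 pairs. Of 16 arrays, 2 correlated best with their own number. These values cannot decide whether same-numbered arrays share an animal, which the labels do not give. With the replicate number as a block, 2 members were called in adenoma, 1 in carcinoma (Kdr, 1.33, limma adjusted p = 0.0453) and 0 between the tumours, and 1050 and 1181 probe sets in all against 821 and 917. Only WT has a replicate 6, so in this fit WT 6 does not enter the group differences. Leaving out WT 6 without a block gave the same Kdr estimate in carcinoma, and 968 and 1085 probe sets in all.

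Counts over all probe sets moved by more than 1.5 times with the Gapdh covariate (97 in adenoma and 145 in carcinoma), the spike-in covariate (463 and 458), without the 4 WT arrays (259 and 278) and, in adenoma, without adenoma 5 (519). Between the tumours 4 probe sets became 28 with array weights, 10 without the 4 WT arrays, 7 with the floor at the 40th percentile or without WT 2, and 2 with the floor at the 10th, 1 probe set per gene or only the 2 groups compared.

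Directions turned only in members that did not pass. In adenoma, Flt1 (98452_at) became -0.0061 with array weights, -0.14 with the spike-in covariate and -0.145 without the 4 WT arrays, and ran from -0.080 to 0.21 with single arrays left out. Tie1 (161184_f_at) became 0.52 with the spike-in covariate and 0.20 without the 4 WT arrays. In carcinoma, aligned medians gave 0.10 for Flt1 (98452_at), 0.095 for Tie1 and 0.29 for Vwf, the spike-in covariate gave 0.74 for Tie1 and 0.29 for Vwf, the fit without the 4 WT arrays gave 0.42 and 0.19, and quantile normalization 0.087 for Vwf. With single arrays left out, carcinoma minus WT ran from -0.019 to 0.61 for Flt1 (98453_at), -0.42 to 0.12 for Tie1 and -0.16 to 0.17 for Vwf. Carcinoma minus adenoma ran from -0.050 to 0.26 for Pecam1 and from -0.085 to 0.40 for Tek, and Tek was -0.027 with the floor at the 40th percentile and -0.16 with array weights. Signal near the floor limits Tek, Flt1 (98453_at), Tie1 (99936_at) and Vwf (97052_at).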
